A study of Homo sapiens with 23 samples.

Results

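The interferon-stimulated and RNA-sensing genes are 49 genes that cells switch on through interferon receptors or that recognise foreign RNA. They were chosen by symbol as a list of known genes, with earlier results of these data known. Each symbol matched 1 Ensembl identifier among the 57875 genes listed for each sample. *RIGI* is the current symbol of *DDX58*. RNAseq had been run on HCT116 cells, a human colorectal carcinoma line, with 3 biological replicates of each of 5 genotypes: wild type, AGO1-/-, AGO2-/-, AGO1-/- with AGO2-/- (*AGO1/2* or double knockout) and AGO1-/- with AGO2-/- and AGO3-/- (*AGO1/2/3* or triple knockout). The knockouts had been made by CRISPR editing and all cells were grown in the same medium, and the labels and methods name no interferon, virus or RNA given to them. Each genotype is represented by 1 line, so genotype and line cannot be told apart. The comparison asks whether baseline levels of these genes change when AGO proteins, which carry microRNAs, are lost. The 8 eCLIP samples of the series were not analysed here.

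Cells recognise double-stranded or incompletely capped RNA in the cytoplasm through helicases such as RIG-I and MDA5, which signal through the adaptor MAVS to the factors IRF3 and NF-kappa-B and so to interferon genes. Secreted interferon binds its receptors, JAK kinases phosphorylate STAT factors, and these bind IRF9 to form the complex ISGF3, which activates target genes through an interferon-stimulated response element in their promoters. Many of the targets are themselves sensors or signalling factors, and many are also transcribed at a low level without interferon. HCT116 is a line of intestinal epithelial origin.

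Total counts per sample ranged from 27709971 to 45271146, and 22842 genes passed edgeR's filter on low counts. Levels are normalized counts, the estimated counts of the deposited files scaled by edgeR's TMM method to the mean library size. *AGO1* had 3584 to 4869.6 normalized counts in wild type against 953 to 1312 in the 3 lines edited in it, and *AGO3* had 3325 to 4334 and, in triple knockout cells, 1531 to 1909. *AGO2* RNA had 12589.7 to 15265 normalized counts in wild type, 8705 to 10444 in *AGO2*, 10663 to 12121 in double and 17215 to 18538 in triple knockout cells; a coding edit need not lower the RNA, so this level does not check the label. The epithelial markers *EPCAM*, *KRT8* and *KRT18* had at least 2058 normalized counts in every sample, while *CDX1* was at 0 counts in all samples and *VIL1* had at most 9.60 normalized counts. Of the 6 epithelial markers tested, *EPCAM* and *CDH1* were lower and *KRT8* higher in double knockout cells (median log2 fold change 0.09), and *EPCAM*, *KRT20*, *CDH1* and *CDX2* were lower and *KRT8* higher in triple knockout cells (median -1.16). *CDH1*, E-cadherin, had 2479.7 to 4458 normalized counts in wild-type, 1051 to 1994 in *AGO1*, 1922 to 2688 in *AGO2*, 901 to 1202 in double and 258 to 306 in triple knockout cells. Among 8 leukocyte markers *CD3E* and *MS4A1* were at 3 counts or fewer in every sample. The summed level of the 8 was 145 to 239.6 normalized counts in wild-type, 113 to 218 in *AGO1*, 156 to 198 in *AGO2*, 415 to 557 in double and 333 to 375 in triple knockout cells. Most of the higher sum lay in *LYZ*, lysozyme, with 2.01 to 5.604 normalized counts in wild-type, 69.5 to 131 in double and 222 to 271 in triple knockout cells, and in *CD68* in double knockout cells; the part of either marker list in the results was not tested. A different quantification mode is named in the headers of the *AGO2* knockout files, which cannot be told apart from that genotype.

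The members were higher in double knockout cells, and a smaller set was higher in triple knockout cells, while few differed in either single knockout line. In double knockout cells 30 of the 48 members tested were higher than in wild-type cells and 0 were lower, where 8.37% of all genes tested were higher and 8.35% lower. In triple knockout cells 21 members were higher, against 20.3% of all genes, and 4 were lower, against 19.8%. In *AGO1* knockout cells 2 members were higher (all genes, 3.17%) and 0 lower (5.5%). In *AGO2* knockout cells 3 were higher (all genes, 8.55%) and 1 lower (10.8%). The median log2 fold change over the 48 members was 1.08 in double and 0.44 in triple knockout cells, against 0.01 and -0.01 over all genes tested. In the single knockouts it was -0.04 (*AGO1*) and 0.01 (*AGO2*). Members were called by edgeR's quasi-likelihood test at an adjusted p at or under 0.05. *PSMB8*, with 3.33 to 13.5 normalized counts, did not pass the filter and was not tested. In bulk RNA, more RNA per cell and more cells with the RNA cannot be told apart.

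**Figure D1:**
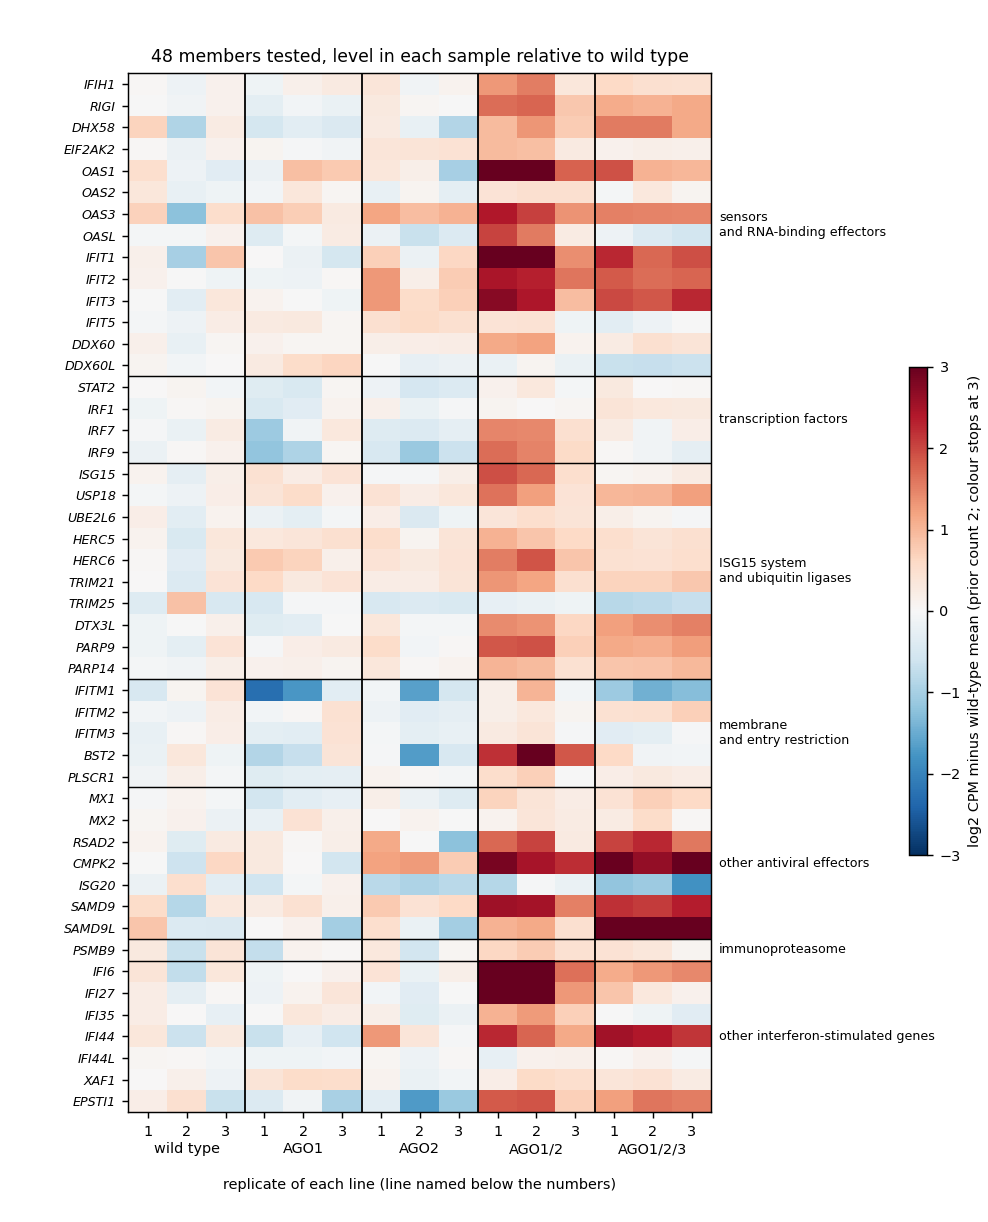
Level of the 48 members tested in each of the 15 samples, as log2 CPM (counts scaled to library size) minus the mean of the wild-type samples (colour), with members in rows grouped by role and samples in columns grouped by line. Red fills most rows of double knockout replicates 1 and 2, is paler in replicate 3, and covers some of the rows in triple knockout cells.

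The double knockout replicates did not stand at the same level. The median over the 48 members of the log2 level minus the wild-type mean was 1.21 and 1.26 in replicates 1 and 2 and 0.48 in replicate 3. Replicate 3 was the lowest of its line for 39 of the 48 members, where it was the lowest for 30.2% of all genes. The median SD over replicates was 0.45 on the log2 scale for members in this line and 0.19 for all genes. In triple knockout cells the 3 replicates had medians over members of 0.46, 0.46 and 0.42, with a median SD of 0.15 for members and for all genes. Wild-type replicate 2 also stood apart, with 1675 genes over 1 log2 unit from the mean of the other wild-type samples (617 and 976 for those), and was the lowest of its line for 28 of the 48 members and for 39.5% of all genes. Without both libraries, a choice made after seeing the data, 29 members were higher in double and 23 higher and 3 lower in triple knockout cells. The same fit gave 2 members higher in *AGO1* and 0 in *AGO2* knockout cells.

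**Figure D2:**
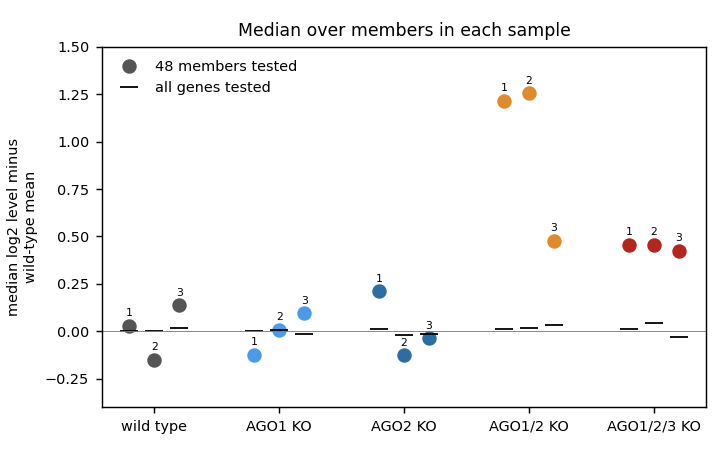
Median over the 48 members tested (circles, numbered by replicate) and over all 22842 genes tested (dashes) of the log2 level minus the wild-type mean, for each sample (vertical axis) by line (horizontal axis). Replicates 1 and 2 of double knockout cells lie at 1.21 and 1.26, above the 3 triple knockout samples at 0.42 to 0.46, and replicate 3 lies at 0.48 beside them.

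The members differ widely in their level before any AGO gene is lost. Per length, in CPM per 1000 exon bases (mean ± SD, n = 3), *IFITM3* had the highest wild-type level at 41.3 ± 5.88, followed by *TRIM25* at 21.6 ± 12.5, *ISG15* at 19.2 ± 2.95, *IFITM2* at 14.1 ± 1.95, *EIF2AK2* at 11.9 ± 1.25 and *DDX60L* at 11.6 ± 0.675. The intervals of *TRIM25*, *ISG15* and *IFITM2* overlapped, and so did those of *EIF2AK2* and *DDX60L*. At the low end *OAS1* had 0.0292 ± 0.011, *RSAD2* 0.0262 ± 0.008 and *SAMD9L* 0.00911 ± 0.00907, and the intervals of *OAS1* and *RSAD2* overlapped. The sensor genes *RIGI* and *IFIH1* stood in the middle of the order at 1.52 ± 0.123 and 1.49 ± 0.156, levels that did not differ beyond their spread. Length was that of all annotated exons of a gene joined, 10345 bases for *RIGI* and 5225 for *IFIH1*, so the order depends on the annotation. Without division by length, *RIGI* had 523 ± 42.2 and *IFIH1* 260 ± 27.1 normalized counts in wild-type cells.

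**Figure D3:**
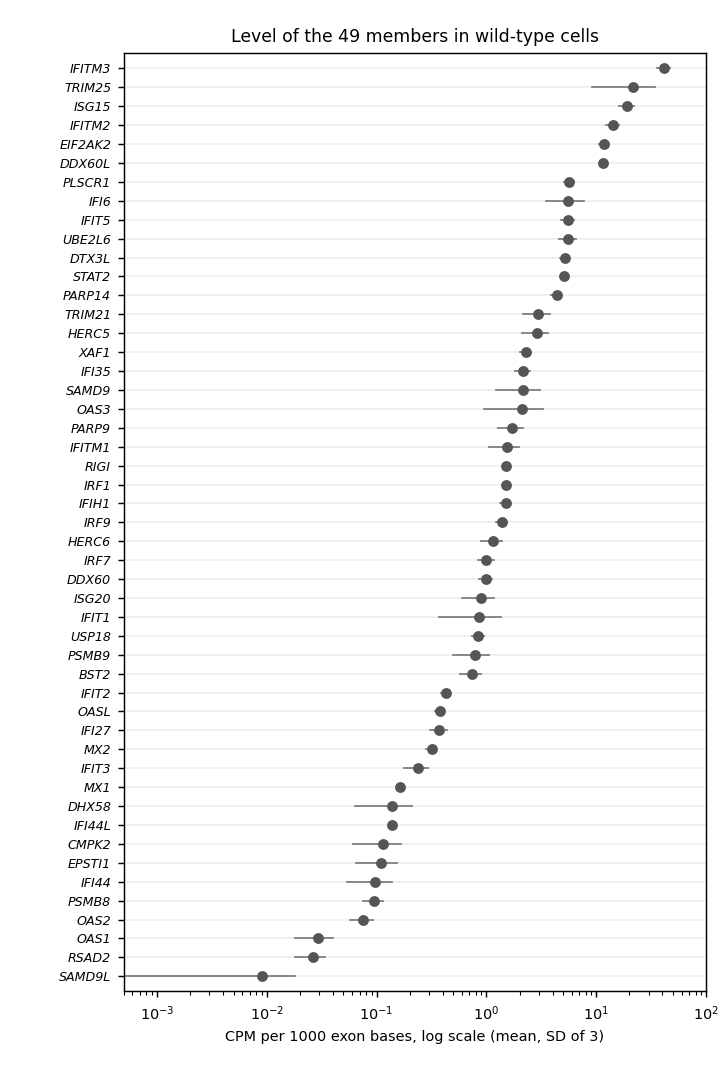
Level of the 49 members in wild-type cells in CPM per 1000 exon bases (horizontal axis, log scale; circle, mean of 3 replicates; line, SD), ordered from highest to lowest. The order runs from *IFITM3* at 41.3 to *SAMD9L* at 0.00911, and neighbours mostly overlap in their SD.

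Promoter sequences were available for 41 of the 49 members, as 300 bases from 250 before to 50 after a transcript start (RefSeq, GRCh38.p14). There was no entry for *OAS2*, *OASL*, *DHX58*, *IFIT2*, *IFITM2*, *IRF7*, *MX2* and *USP18*. The response element was searched as GAAANNGAAA on both strands, and the gamma-activated site, an element found in genes that respond to interferon gamma, as TTCNNNGAA, whose reverse complement is the same. The response element was present for 28 of the 41 members (68.3%) and for 4.38% of the 27305 gene symbols with a promoter. The gamma-activated site was present for 13 of the 41 (31.7%) and for 9.38% of all symbols. Among the members higher in double knockout cells 19 of 26 held the response element, and among those tested and not higher 8 of 14 did. The gamma-activated site was in 9 of 26 and 3 of 14 of them. Among the members higher in triple knockout cells the numbers were 13 of 17 for the response element and 3 of 17 for the gamma-activated site. Those higher in double and not called in triple knockout cells held the response element in 8 of 12 and the gamma-activated site in 7 of 12. A missing call does not show a difference between the 2 lines. Members lower in triple than in double knockout cells when the lines were compared directly held the 2 motifs in 9 of 13 and 6 of 13. These matches are letters in a window and were not tested for use. Windows of 30 bases are shown for 8 members described in the next paragraphs. *IFI27*, *BST2* and *ISG15* were called higher in double and not in triple knockout cells. *IFI6*, *IFIT1*, *OAS3*, *SAMD9* and *DTX3L* were called higher in both lines. The windows are on the strand of the gene, 5′ to 3′, with the match in capitals.
IFI6 promoter (chr1:27672266-27672295, minus strand): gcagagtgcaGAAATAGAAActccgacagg
IFI27 promoter (chr14:94110618-94110647, plus strand): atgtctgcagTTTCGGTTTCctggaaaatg
BST2 promoter (chr19:17405735-17405764, minus strand): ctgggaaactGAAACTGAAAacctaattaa
ISG15 promoter (chr1:1013380-1013409, plus strand): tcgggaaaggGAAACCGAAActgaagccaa
IFIT1 promoter (chr10:89392510-89392539, plus strand): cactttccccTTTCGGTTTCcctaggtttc
OAS3 promoter (chr12:112938321-112938350, plus strand): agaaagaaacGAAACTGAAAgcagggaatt
SAMD9 promoter (chr7:93118096-93118125, minus strand): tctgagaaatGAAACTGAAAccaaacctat
DTX3L promoter (chr3:122564322-122564351, plus strand): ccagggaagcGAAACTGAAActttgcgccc
The *DTX3L* match lies between 2 genes that start in opposite directions, and the same bases are in the promoter of *PARP9*. *IFI6* held 3 such matches, at -156, -115 and -93 bases from the start. No match to the response element was in the promoters of *OAS1*, *CMPK2*, *RIGI*, *IRF9*, *SAMD9L*, *XAF1*, *HERC6* and *IFI35*, all of which were higher in double or triple knockout cells, nor in those of *IRF1*, *PSMB9*, *STAT2*, *TRIM25* and *UBE2L6*. Of these, *OAS1*, *IRF9*, *IFI35* and *IRF1* held the gamma-activated site.

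Of the 14 sensors and RNA-binding effectors, 10 were higher in double knockout cells (all genes, 8.37%) and 0 lower (8.35%). In triple knockout cells 6 were higher (all genes, 20.3%) and 1 lower (19.8%). The median log2 fold changes were 1.31 and 0.81. *RIGI* encodes RIG-I, the helicase that binds RNA with a 5′ triphosphate. It lies on chromosome 9 from 32455302 to 32526208 (GRCh38, GENCODE v44) and had 519.8, 482 and 566 normalized counts in wild-type samples, 423, 492 and 456 in *AGO1* and 637, 544 and 514 in *AGO2* knockout cells. In double knockout cells it had 1679, 1752 and 913, and in triple knockout cells 1129, 1079 and 1143. All 6 samples of these lines stood above all 9 others, replicate 3 of double knockout cells being the lowest of them. The log2 fold change was 1.47 (SE 0.18, adjusted p = 7.06e-05) in double and 1.09 (SE 0.18, adjusted p = 2.10e-04) in triple knockout cells.

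*IFIH1* encodes MDA5, the helicase that binds long double-stranded RNA. It had 264, 231 and 285 normalized counts in wild-type samples, 238, 289 and 312 in *AGO1* and 335, 240.2 and 279 in *AGO2* knockout cells. In double knockout cells the values were 641, 749.9 and 329.5 and in triple knockout cells 393, 365 and 358. Replicates 1 and 2 of double knockout cells stood clear of all others, and replicate 3 lay below the highest *AGO2* knockout sample. The log2 fold change was 1.14 (SE 0.23, adjusted p = 0.0027) in double knockout cells and 0.52 in triple knockout cells, where it was not called (adjusted p = 0.0831). *DHX58* encodes LGP2, a relative of both that lacks the signalling domain. It had 26.04, 7.42 and 19.05 normalized counts in wild-type, 31.9, 42.4 and 28.2 in double and 50.1, 50.1 and 37.2 in triple knockout cells, and 7.58 to 19.4 in the single knockouts. Its log2 fold change was 1.38 (SE 0.35, adjusted p = 0.00477) in triple and 0.96 in double knockout cells (adjusted p = 0.0839).

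*EIF2AK2* encodes PKR, the kinase that stops translation when it binds double-stranded RNA. Its normalized counts were 4441, 3869.7 and 4777 in wild-type, 4583, 4222 and 4032 in *AGO1* and 5619.8, 5665 and 5873 in *AGO2* knockout cells, then 8417, 8181 and 5224 in double and 4781, 4902 and 4858 in triple knockout cells. Replicates 1 and 2 of double knockout cells were the highest samples, while replicate 3 lay within the range of the other lines. The gene rose by 1.67-fold in double knockout cells, log2 fold change 0.74 (SE 0.14, adjusted p = 0.00232), and was lower in triple than in double knockout cells by -0.59 (SE 0.14, adjusted p = 0.00795) on the log2 scale. *DDX60*, a helicase linked to RIG-I signalling, had 632, 484 and 594 normalized counts in wild-type, 1239, 1312 and 609 in double and 667, 785 and 739.8 in triple knockout cells. Its log2 fold change in double knockout cells was 0.89 (SE 0.20, adjusted p = 0.00713), although replicate 3 lay inside the wild-type range. Without double knockout replicate 2 it was 0.69 with adjusted p = 0.0537. Its neighbour and paralog *DDX60L* went another way, with 4943, 4405 and 4758 normalized counts in wild-type, 5688, 6829 and 7387 in *AGO1*, 4673, 3987 and 4178 in *AGO2*, 4079.98, 4973 and 4107 in double and 2958, 2903 and 3013 in triple knockout cells. *DDX60L* was higher in *AGO1* knockout cells, log2 fold change 0.496 (SE 0.11, adjusted p = 0.012), and lower in triple knockout cells, -0.67 (SE 0.11, adjusted p = 2.06e-04), with no overlap with wild-type samples in either.

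The OAS enzymes make 2′-5′ oligoadenylates when they bind double-stranded RNA, and *OAS1*, *OAS3* and *OAS2* lie together on chromosome 12 from 112905856 to 113011723. *OAS1* showed the largest log2 fold change of the members in double knockout cells, 3.83 (SE 0.58, adjusted p = 3.42e-04). It had 18.1, 10.7 and 9.09 normalized counts in wild-type, 10.4, 24.5 and 22.2 in *AGO1*, 15.3, 14.2 and 5.12 in *AGO2*, 227, 259.6 and 45.8 in double and 51.2, 27.05 and 26.2 in triple knockout cells. Replicate 3 of double knockout cells fell far below the other 2 and inside the triple knockout range, which lay above wild type without a call (log2 fold change 1.497, adjusted p = 0.0766). *OAS3*, the most abundant of the family, had 1757, 465 and 1584 normalized counts in wild-type, 1992, 1809.8 and 1313 in *AGO1*, 2477, 2059 and 2250.5 in *AGO2*, 5795, 4545 and 2757 in double and 3116, 3083 and 3031 in triple knockout cells. Wild-type replicate 2 was the lowest sample by a wide margin. *OAS3* rose in both lines, with log2 fold changes of 1.78 (SE 0.36, adjusted p = 0.00295) and 1.28 (SE 0.35, adjusted p = 0.00923), which were 1.37 and 0.85 without wild-type replicate 2 (adjusted p = 0.00144 and 0.0108). *OAS2*, from 22.01 to 39.6 normalized counts in all samples, was not called in any line. *OASL*, a relative without the enzyme activity on another part of the chromosome, had 74.6, 74.8 and 86.7 normalized counts in wild-type, 329, 237 and 92.5 in double and 70.04, 57.9 and 53.2 in triple knockout cells. It rose in double knockout cells, log2 fold change 1.48 (SE 0.32, adjusted p = 0.00521), and in triple knockout cells the value was -0.37 (adjusted p = 0.426).

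The IFIT proteins bind viral RNA ends and block its translation, and *IFIT2*, *IFIT3*, *IFIT1* and *IFIT5* form a cluster on chromosome 10 from 89283694 to 89421605. *IFIT1* had 130.4, 57.6 and 208 normalized counts in wild-type, 118, 102 and 79.3 in *AGO1*, 192, 102 and 178 in *AGO2*, 1486, 1033 and 307 in double and 559.6, 386 and 447 in triple knockout cells. Both multiple knockouts lay above all other samples, and replicate 3 of double knockout cells was below all triple knockout samples. The log2 fold changes were 2.83 (SE 0.49, adjusted p = 9.01e-04) and 1.81 (SE 0.48, adjusted p = 0.00674). *IFIT2* had 67.7, 60.8 and 56.1 in wild-type, 55.9, 54.7 and 63.2 in *AGO1*, 155, 69.3 and 105 in *AGO2*, 346, 314 and 189.9 in double and 226, 202 and 212 in triple knockout cells. *IFIT3* had 38.7, 30.3 and 50.3, 42.6, 38.9 and 35.6, 100.001, 57.7 and 65.02, 269, 220.01 and 76.1 and 162, 147 and 193 normalized counts in the same order of lines. Both genes overlapped between wild-type and *AGO1* knockout cells, and every sample of the other 3 lines lay above all wild-type samples. *IFIT2* rose by 2.21 (SE 0.26, adjusted p = 4.11e-05) and 1.79 (SE 0.26, adjusted p = 5.81e-05) on the log2 scale in double and triple knockout cells, and *IFIT3* by 2.24 and 2.07.

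In *AGO2* knockout cells *IFIT2* was called at 0.84 (SE 0.26, adjusted p = 0.0383), a call lost in 12 of 23 other settings, among them without any 1 of the 3 wild-type samples or without *AGO2* knockout replicate 1 (0.47, adjusted p = 0.197). *IFIT3* had 0.89 there (adjusted p = 0.101). *IFIT5*, the fourth gene of the cluster, differed from the others in pattern. Its normalized counts were 765, 725 and 929 in wild-type, 963, 990.2 and 834 in *AGO1*, 1122, 1199 and 1118 in *AGO2*, 1059.6, 1082 and 736 in double and 642, 718 and 790.1 in triple knockout cells. It was higher in *AGO2* knockout cells alone, log2 fold change 0.51 (SE 0.14, adjusted p = 0.0249), with 0.41 (adjusted p = 0.122) without wild-type replicate 2, and not called in double or triple knockout cells (0.25 and -0.17).

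Among the 4 transcription factors, *IRF7* and *IRF9* were higher in double knockout cells (all genes, 8.37%) and none was called in the other lines. *IRF9*, the DNA-binding partner in ISGF3, had 261, 306 and 326 normalized counts in wild-type, 129, 156 and 309 in *AGO1*, 213, 135 and 189.9 in *AGO2*, 956, 839.9 and 443 in double and 306, 274 and 244 in triple knockout cells. Its double knockout samples stood above all others, while those of triple knockout cells overlapped with wild type. Its log2 fold change was 1.32 (SE 0.30, adjusted p = 0.006) and -0.12 in the 2 lines. *IRF9* shares 1544 of its 6471 annotated exon bases with a second gene on the same strand, and counts there may have been split between them. *IRF7*, which amplifies interferon gene expression, had 83.3, 74.2 and 102 in wild-type, 39.3 to 108 in the single knockouts, 239.6, 238 and 120.05 in double and 103, 79.2 and 98.1 in triple knockout cells. Its log2 fold change was 1.20 (SE 0.29, adjusted p = 0.0104) in double knockout cells and fell to 1.03 (adjusted p = 0.0505) without replicate 1 and 1.05 (adjusted p = 0.054) without replicate 2 of that line. *STAT2*, from 1113 to 1982 normalized counts, and *IRF1*, from 448 to 814, were not called in any line.

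Of the 10 genes of the ISG15 system and ubiquitin ligases, 8 were higher in double knockout cells (all genes, 8.37%). In triple knockout cells 5 were higher (all genes, 20.3%) and 1 lower (19.8%). *ISG15* encodes a ubiquitin-like protein that is attached to other proteins after interferon. It lies on chromosome 1 from 1001138 to 1014540 and had 589, 457 and 616 normalized counts in wild-type, 750.3, 638 and 726 in *AGO1*, 537, 536 and 623 in *AGO2*, 2103, 1822 and 780.3 in double and 573, 589 and 647 in triple knockout cells. Replicates 1 and 2 of double knockout cells were the only samples above 1000, and replicate 3 was close to the *AGO1* knockout samples. The log2 fold change was 1.503 (SE 0.25, adjusted p = 7.43e-04) in double and 0.12 in triple knockout cells. *HERC5* and *HERC6*, which lie side by side on chromosome 4 and encode ligases of the HERC family, were also higher in double knockout cells. *HERC6* had 223, 171 and 266 in wild-type, 241 to 376 in the single knockouts, 633, 809 and 388 in double and 299, 294 and 307 in triple knockout cells, and rose by 1.47 (SE 0.23, adjusted p = 4.29e-04) on the log2 scale in the former. *HERC5*, the ligase for ISG15, rose in double knockout cells by 0.80 (SE 0.17, adjusted p = 0.00457). In triple knockout cells it had 0.42 and was not called (adjusted p = 0.0629). *UBE2L6*, the conjugating enzyme for ISG15, had 302 to 429 normalized counts in wild-type and 480.3 to 532 in double knockout cells and was not called.

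*USP18* removes ISG15 from proteins and dampens receptor signalling. It had 111, 103 and 132 normalized counts in wild-type, 149, 168 and 124 in *AGO1*, 156, 134 and 146 in *AGO2*, 359, 273 and 154 in double and 229.8, 234 and 270.2 in triple knockout cells. Unlike *ISG15*, it was higher in both multiple knockouts, with log2 fold changes of 1.19 (SE 0.23, adjusted p = 0.00242) and 1.09 (SE 0.23, adjusted p = 0.00149). *PARP9*, *DTX3L* and *PARP14* lie close together on chromosome 3 and encode an ADP-ribosyltransferase pair with its ligase and another PARP. *DTX3L* had 898, 973 and 1102 in wild-type, 2645, 2518 and 1519.9 in double and 2331, 2596 and 2810.1 in triple knockout cells, and 763 to 1261 in the single knockouts. *PARP9* had 458, 409.9 and 661 in wild-type, 1807, 1887 and 817 in double and 1099.8, 1069 and 1199 in triple knockout cells, and 469 to 735 in the single knockouts. *PARP14* had 1431, 1382 and 1687 in wild-type, 3028, 2882 and 2043 in double and 2670.1, 2688 and 2933 in triple knockout cells, and 1543 to 1877. All 3 genes stood above every wild-type and single-knockout sample in both multiple knockouts. Their log2 fold changes in double knockout cells were 1.17 (*DTX3L*), 1.56 (*PARP9*) and 0.82 (*PARP14*). In triple knockout cells they were 1.38 for *DTX3L* (SE 0.18, adjusted p = 2.70e-05), 1.14 for *PARP9* (SE 0.26, adjusted p = 0.00278) and 0.88 for *PARP14* (SE 0.13, adjusted p = 8.36e-05).

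*TRIM21*, an antibody receptor and ubiquitin ligase, had 186, 139.9 and 248 normalized counts in wild-type, 466, 425 and 259.7 in double and 299.5, 298 and 329 in triple knockout cells. Its log2 fold changes were 1.005 (SE 0.21, adjusted p = 0.00369) and 0.69 (SE 0.21, adjusted p = 0.0154), and the second was 0.48 (adjusted p = 0.0838) without wild-type replicate 2, 0.65 (adjusted p = 0.0549) without wild-type replicate 1 and 0.60 (adjusted p = 0.0708) without triple knockout replicate 3. *TRIM25*, the ligase that modifies RIG-I, was the exception of the group. It had 6152, 14880.1 and 5766 in wild-type, 5789.98, 7904 and 7913 in *AGO1*, 5829, 6069 and 5894 in *AGO2*, 6843, 6985 and 7450.5 in double and 4552, 4709 and 4978 in triple knockout cells. Wild-type replicate 2 stood far above all other samples. The gene fell in triple knockout cells, log2 fold change -0.91 (SE 0.26, adjusted p = 0.0111), which was -0.35 without wild-type replicate 2 (adjusted p = 0.0298).

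Of the 5 membrane and entry restriction genes, *BST2* and *PLSCR1* were higher in double knockout cells (all genes, 8.37%). In triple knockout cells *IFITM2* was higher and *IFITM1* lower, each 20% of the 5. These shares were near those of all genes (20.3% and 19.8%). *BST2* encodes tetherin, which holds budding virions at the cell surface. It had 22.9, 33.9 and 24.1 normalized counts in wild-type, 13.5, 15.8 and 35.5 in *AGO1*, 26.1, 6.93 and 18.5 in *AGO2*, 128, 229 and 102 in double and 41.6, 24.5 and 24.8 in triple knockout cells. The double knockout samples lay above all 12 others, here with replicate 2 the highest. Its log2 fold change was 2.501 (SE 0.41, adjusted p = 6.46e-04) in double and 0.19 in triple knockout cells. *PLSCR1*, a scramblase that restricts virus entry, was close to the threshold at 0.44 (SE 0.14, adjusted p = 0.0472) in double knockout cells. That call was lost in 18 of 23 other settings, including without double knockout replicate 2 (0.27, adjusted p = 0.272).

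The IFITM proteins block fusion of viruses with cell membranes, and *IFITM2*, *IFITM1* and *IFITM3* lie in tandem on chromosome 11 from 303655 to 329475. Their sequences are similar, so that reads may have been assigned between them. *IFITM1* had 58.1, 87.1 and 109 normalized counts in wild-type, 15.7, 23.4 and 65.5 in *AGO1*, 77.1, 25.8 and 56.4 in *AGO2*, 92.5, 169.6 and 77.3 in double and 36.97, 29.5 and 33.1 in triple knockout cells. Its values spread widely within the single knockout lines and narrowly in triple knockout cells, where all 3 lay below wild type. The log2 fold change there was -1.35 (SE 0.48, adjusted p = 0.0339). It was -1.15 (adjusted p = 0.101) without wild-type replicate 3 and -1.36 (adjusted p = 0.0553) without wild-type replicate 2, and the call was also lost without each triple knockout replicate in turn (adjusted p = 0.0628 to 0.0921) and with the replicate number as a block (adjusted p = 0.0512). *IFITM2* had 711, 678 and 873 in wild-type and 1026, 1047 and 1237 in triple knockout cells, log2 fold change 0.55 (SE 0.14, adjusted p = 0.0057), which was 0.42 (adjusted p = 0.0501) without triple knockout replicate 3. *IFITM3*, the most abundant member per length, had 3088 to 5233 normalized counts over all samples and was not called in any line.

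Of the 7 other antiviral effectors, 2 were higher in double knockout cells (all genes, 8.37%), and 5 were higher and 1 lower in triple knockout cells (all genes, 20.3% and 19.8%). *SAMD9* and *SAMD9L* are neighbours on chromosome 7, from 93099513 to 93148385, and encode related proteins that restrict poxviruses. *SAMD9* had 660.4, 250.1 and 562 normalized counts in wild-type, 541, 618 and 507 in *AGO1*, 777, 617 and 687 in *AGO2*, 2662, 2551 and 1292 in double and 2075, 1947 and 2322 in triple knockout cells. Both multiple knockouts stood above all 9 other samples, with log2 fold changes of 2.14 (SE 0.30, adjusted p = 1.54e-04) and 2.11 (SE 0.30, adjusted p = 4.09e-05). *SAMD9L* was nearly silent in 4 of the 5 lines. It had 5.21, 1.06 and 1.003 normalized counts in wild-type, 2.07, 2.43 and 0 in *AGO1*, 3.72, 1.54 and 0 in *AGO2* and 6.39, 6.93 and 3.68 in double knockout cells, and 165, 107 and 138 in triple knockout cells. Summed over replicates there were 408 counts in triple knockout and 7 in wild-type cells, a ratio per total count of 52.5 with an exact 95% interval of 25.2 to 131 that covers counting error only. The fitted log2 fold change was 5.75 (SE 0.47, adjusted p = 2.09e-07) and rests on those few wild-type counts, being 6.87 without wild-type replicate 1.

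*CMPK2* and *RSAD2* are neighbours on chromosome 2, from 6840570 to 6898239. *RSAD2* encodes viperin, which makes a chain-terminating nucleotide from the CTP that the kinase encoded by *CMPK2* supplies. *CMPK2* had 15.6, 9.54 and 25.1 normalized counts in wild-type, 19.7, 15.8 and 9.98 in *AGO1*, 38.7, 40.8 and 27.8 in *AGO2*, 126, 96.3 and 79.6 in double and 137, 108 and 149.9 in triple knockout cells. The levels in the 3 lines without AGO2 lay above all wild-type and *AGO1* knockout samples, with *AGO2* knockout cells in between. The log2 fold changes were 1.09 (SE 0.32, adjusted p = 0.0294) in *AGO2*, 2.57 (SE 0.30, adjusted p = 3.68e-05) in double and 2.96 (SE 0.30, adjusted p = 1.57e-06) in triple knockout cells. In *AGO2* knockout cells the call was lost without wild-type replicate 2 (0.79, adjusted p = 0.145), without wild-type replicate 1 (1.02, adjusted p = 0.0825) and without *AGO2* knockout replicate 1 or 2 (adjusted p = 0.0739 and 0.117). *RSAD2* had 5.55, 3.21 and 6.03 in wild-type, 6.23, 4.94 and 5.66 in *AGO1*, 12.8, 4.64 and 0.847 in *AGO2*, 20.4, 25.3 and 6.202 in double and 25.7, 30.3 and 18.04 in triple knockout cells, log2 fold changes 1.82 (adjusted p = 0.0587) and 2.32 (SE 0.59, adjusted p = 0.00536).

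*MX1* and *MX2*, dynamin-like GTPases on chromosome 21 that trap viral particles, showed small differences. *MX1* had 94.4, 104 and 92.97 normalized counts in wild-type, 156, 128 and 114 in double and 131, 162 and 148 in triple knockout cells, log2 fold change 0.59 (SE 0.17, adjusted p = 0.0107) in the last, which was 0.51 (adjusted p = 0.0571) without its replicate 2. *MX2* had 131 to 223 over all samples and was not called. *ISG20*, an exonuclease that degrades viral RNA, had 181, 292 and 166 in wild-type, 136, 196 and 224 in *AGO1*, 117, 108 and 117 in *AGO2*, 114, 201 and 179.8 in double and 89.8, 95.2 and 57.6 in triple knockout cells. All *AGO2* and triple knockout samples lay below all wild-type samples. It fell by 0.90 (SE 0.26, adjusted p = 0.027) on the log2 scale in *AGO2* knockout cells and by 1.39 (SE 0.27, adjusted p = 7.15e-04) in triple knockout cells. The first was -0.63 (adjusted p = 0.116) without wild-type replicate 2, -0.88 (adjusted p = 0.0869) without *AGO2* knockout replicate 2 and -0.94 (adjusted p = 0.0654) without replicate 3.

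The immunoproteasome genes *PSMB8* and *PSMB9*, which lie side by side on chromosome 6, showed no call. *PSMB9* had 102, 50.7 and 108 normalized counts in wild-type, 129, 141 and 115 in double and 112, 106 and 88.3 in triple knockout cells, log2 fold changes 0.56 (adjusted p = 0.205) and 0.23 (adjusted p = 0.561). *PSMB8* had 13.5, 10.6 and 9.02 in wild-type, 5.32, 9.17 and 8.58 in double and 9.33, 4.66 and 3.38 in triple knockout cells.

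Of the 7 other interferon-stimulated genes, 6 were higher in double (all genes, 8.37%) and 4 in triple knockout cells (20.3%), with median log2 fold changes of 1.61 and 0.47. *IFI6*, a mitochondrial and endoplasmic reticulum protein, had 216, 97.5 and 208 normalized counts in wild-type, 149, 164 and 179.6 in *AGO1*, 217, 143 and 186 in *AGO2*, 2242, 2039.8 and 522 in double and 356, 403 and 451 in triple knockout cells. Replicates 1 and 2 of double knockout cells stood far above all others, and replicate 3 was still above the triple knockout samples, which were above the remaining 9. The log2 fold change was 3.20 (SE 0.42, adjusted p = 1.03e-04) in double and 1.21 (SE 0.41, adjusted p = 0.0265) in triple knockout cells. The second was 0.90 (adjusted p = 0.115) without wild-type replicate 2 and was also lost without triple knockout replicate 2 (1.20, adjusted p = 0.0604) or 3 (1.08, adjusted p = 0.0895). *IFI27*, a relative of *IFI6*, had 59.6, 41.8 and 52.5 in wild-type, 45.9, 54.9 and 65.7 in *AGO1*, 47.9, 39.1 and 49.9 in *AGO2*, 461, 631 and 128 in double and 91.8, 63.03 and 55.6 in triple knockout cells. It rose in double knockout cells by 2.99 (SE 0.42, adjusted p = 1.80e-04) on the log2 scale, and its triple knockout samples overlapped with wild type (0.47, adjusted p = 0.432).

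*IFI35*, which binds the coiled-coil protein NMI, had 164, 141 and 118 normalized counts in wild-type, 109 to 178 in the single knockouts, 289, 339.5 and 230.5 in double and 138, 127 and 110.1 in triple knockout cells. It rose in double knockout cells alone, log2 fold change 1.02 (SE 0.18, adjusted p = 0.00122). *IFI44* and *IFI44L* are neighbours on chromosome 1, from 78619902 to 78664078, and went apart. *IFI44* had 8.33, 3.18 and 8.02 in wild-type, 3.105, 4.86 and 3.33 in *AGO1*, 17.9, 8.47 and 5.897 in *AGO2*, 37.3, 25.2 and 15.9 in double and 44.97, 40.8 and 33.8 in triple knockout cells, log2 fold changes 1.99 (SE 0.44, adjusted p = 0.00558) and 2.59 (SE 0.42, adjusted p = 1.46e-04). *IFI44L* stayed from 44.7 to 58.8 in all 15 samples and was not called in any line. *EPSTI1* had 19.8, 24.4 and 10.03 in wild-type, 3.85 to 15.8 in the single knockouts, 66.02, 68.8 and 29.4 in double and 42.4, 55.9 and 52.97 in triple knockout cells. It rose in both, by 1.61 (SE 0.39, adjusted p = 0.00976) and 1.47 (SE 0.39, adjusted p = 0.00686), the first being 1.41 (adjusted p = 0.0539) without double knockout replicate 2.

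*XAF1*, a pro-apoptotic partner of XIAP, was called higher in 3 lines by small margins. It had 501, 549 and 448 normalized counts in wild-type, 647, 727 and 714 in *AGO1*, 536, 436 and 467 in *AGO2*, 568, 737 and 706 in double and 636, 670.3 and 587 in triple knockout cells. Its log2 fold changes were 0.48 (SE 0.12, adjusted p = 0.0232), 0.43 (SE 0.12, adjusted p = 0.0254) and 0.34 (SE 0.12, adjusted p = 0.0371) in *AGO1*, double and triple knockout cells. These calls were lost in 5, 8 and 15 of 23 other settings, among them without wild-type replicate 1 (adjusted p = 0.0558, 0.0675 and 0.0964) or replicate 3 (adjusted p = 0.0743, 0.0983 and 0.176).

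**Figure D4:**
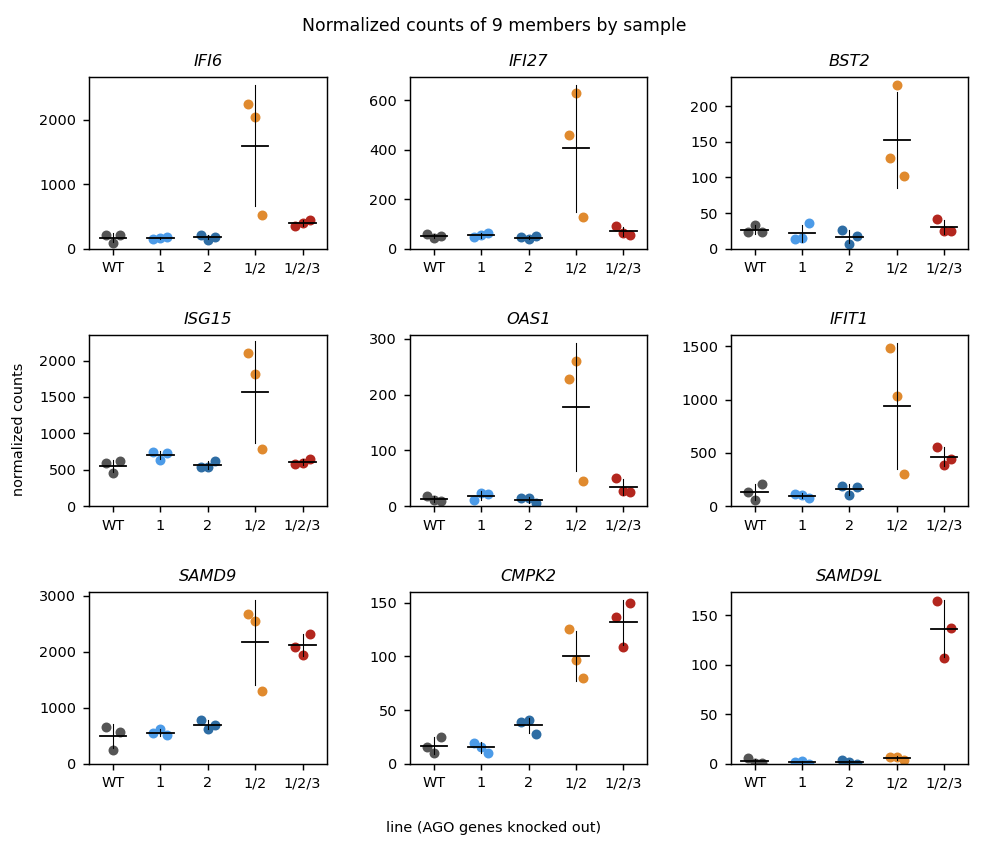
Normalized counts (vertical axes, from 0) of 9 members in the 15 samples by line (horizontal axes; WT, wild type; numbers, AGO genes knocked out); points are replicates, the bar is the mean and the line its SD (n = 3). *IFI6*, *IFI27*, *BST2*, *ISG15* and *OAS1* are highest in double knockout cells and lower in triple knockout cells, *SAMD9* and *CMPK2* are high in both, and *SAMD9L* is high in triple knockout cells alone.

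The 2 multiple knockouts, whose genotypes differ in *AGO3*, were compared with each other in the same model. Each is a single line, so loss of *AGO3* cannot be told apart from other differences between the lines. *SAMD9L* was higher in triple than in double knockout cells and 15 members were lower, where 11.9% of all genes tested were higher and 10% lower. The median over the 48 members was -0.38 on the log2 scale, against -0.01 over all genes. The lower members were *OAS1*, *OASL*, *EIF2AK2*, *IFIT5*, *DDX60L*, *IRF7*, *IRF9*, *ISG15*, *HERC6*, *IFITM1*, *BST2*, *ISG20*, *IFI6*, *IFI27* and *IFI35*. The largest differences were those of *IFI27*, -2.52 (SE 0.41, adjusted p = 3.75e-04), *OAS1*, -2.33 (SE 0.50, adjusted p = 0.00352), *BST2*, -2.31 (SE 0.40, adjusted p = 7.48e-04), and *IFI6*, -1.99 (SE 0.39, adjusted p = 0.00187). Of the 30 members higher in double knockout cells, 16 were also called higher in triple knockout cells and 14 were not. Among the 14, *IFIH1*, *DDX60*, *HERC5* and *PLSCR1* had differences between the 2 lines of -0.63, -0.53, -0.38 and -0.20 that were not called, and the other 10 were called lower. Of the 16, *IFI6* alone was called lower in triple than in double knockout cells. In the remaining 15, which include *RIGI*, *OAS3*, *IFIT1* to *IFIT3*, *USP18*, *DTX3L*, *PARP9*, *PARP14*, *CMPK2*, *SAMD9* and *IFI44*, no difference was called, with values from -1.02 (*IFIT1*, adjusted p = 0.12) to 0.60 (*IFI44*, adjusted p = 0.242). Without double knockout replicate 3, 21 members were lower, and without that sample and wild-type replicate 2 together, 25 were.

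**Figure D5:**
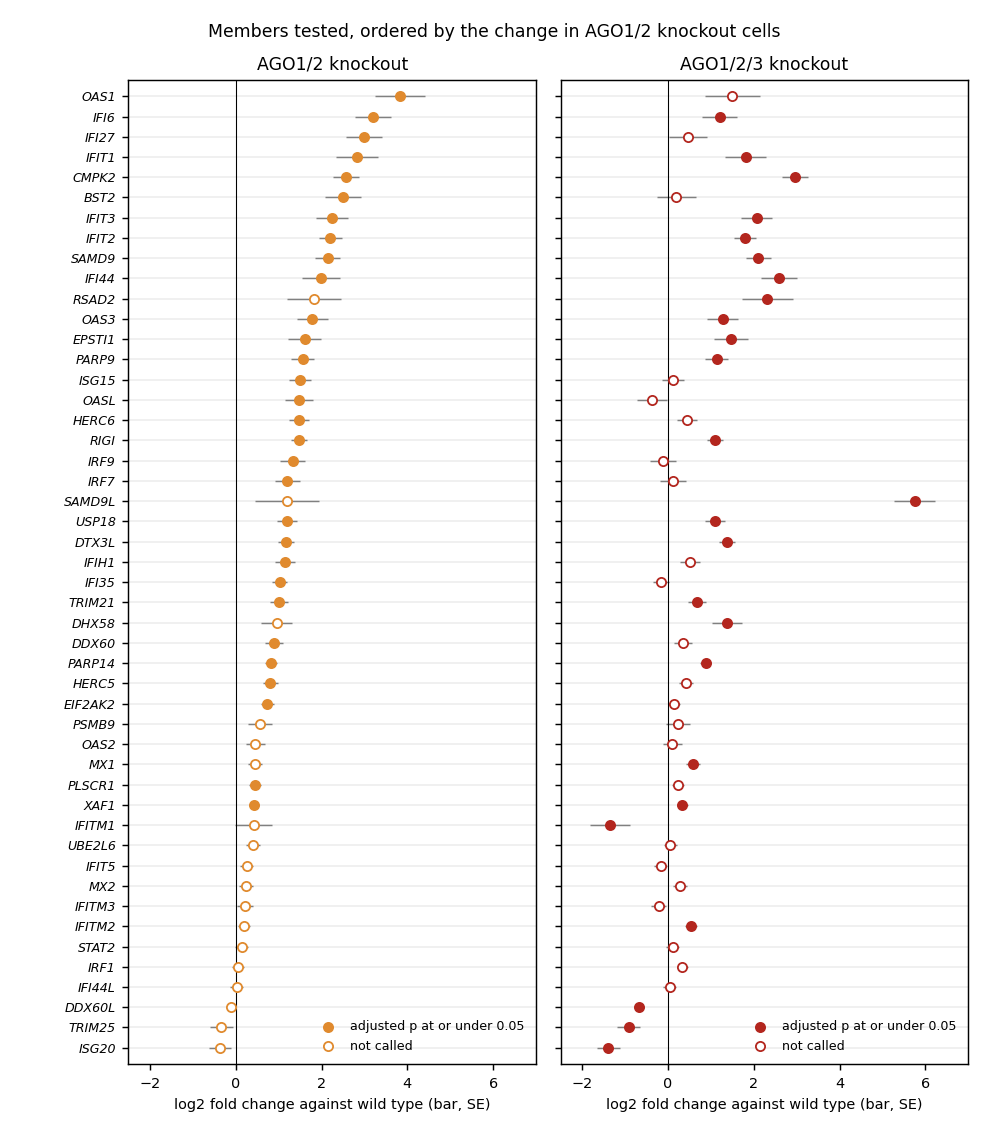
Log2 fold change against wild type (horizontal axis; line, SE) of the 48 members tested in double (left) and triple (right) knockout cells, ordered by the value on the left, with filled circles for an adjusted p at or under 0.05. *OAS1* leads at 3.83 on the left, *SAMD9L* at 5.75 on the right, and *BST2*, *IFI27* and *ISG15* are filled on the left only. The 2 panels share the wild-type samples.

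Against the single knockouts, the members stood higher in the multiple knockouts by counts close to those against wild type. Double knockout cells had 31 members higher and 1 lower than *AGO1* knockout cells (all genes, 11.5% and 7.95%) and 34 higher and 0 lower than *AGO2* knockout cells (12.8% and 11.1%). Triple knockout cells had 20 higher and 3 lower than *AGO1* (21.8% and 18.9%) and 21 higher and 2 lower than *AGO2* knockout cells (21.3% and 18.9%). Of the 30 members higher in double knockout than in wild-type cells, 25 were also higher than in both single knockouts. The exceptions were *EIF2AK2*, *OAS3*, *HERC5*, *TRIM21* and *XAF1*. Of the 21 higher in triple knockout cells, 18 were higher than in both single knockouts, all but *OAS3*, *TRIM21* and *XAF1*. *AGO1* knockout cells had 2 members called against wild type, *DDX60L* and *XAF1*, and *AGO2* knockout cells 4, *IFIT2*, *IFIT5*, *CMPK2* and *ISG20*.

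RNA for interferon itself was scarce in every line. Of 15 interferon genes listed, *IFNB1*, *IFNG*, *IFNK*, *IFNL2* and 5 of the interferon alpha genes had 0 counts in all 15 samples, which allows up to 3 counts per sample, and *IFNA5*, *IFNA6*, *IFNL1* and *IFNL3* had at most 2 counts in any sample. *IFNW1* had at most 8. *IFNE*, interferon epsilon, which epithelia of the reproductive tract make without infection, was the exception. It had 33.3, 48.7 and 29.1 normalized counts in wild-type, 57.95, 46.2 and 33.3 in *AGO1*, 8.93, 16.2 and 13.5 in *AGO2*, 75.6, 71.1 and 85.8 in double and 148, 171 and 136 in triple knockout cells. It was lower in *AGO2* knockout cells, log2 fold change -1.52 (SE 0.28, adjusted p = 0.00329), and higher in double, 1.06 (SE 0.24, adjusted p = 0.00595), and triple knockout cells, 2.03 (SE 0.23, adjusted p = 5.10e-06). The triple knockout samples were all above the double knockout samples, and the difference between the 2 lines was 0.97 (SE 0.22, adjusted p = 0.00432). A relation between *IFNE* and the members was not tested.

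Of 11 interferon receptor and JAK-STAT genes, 2 were higher in double (all genes, 8.37%) and 7 in triple knockout cells (all genes, 20.3%), with 0 lower in either. *JAK2*, a JAK kinase, had 451, 573 and 499 normalized counts in wild-type, 783, 893 and 789.7 in double and 1186, 1148 and 1284 in triple knockout cells. *JAK2* rose by 0.70 (SE 0.11, adjusted p = 4.74e-04) and 1.25 (SE 0.11, adjusted p = 4.11e-07) on the log2 scale. *JAK1*, which pairs with it or with TYK2, was lower in *AGO1* knockout cells by -0.74 (SE 0.15, adjusted p = 0.0062) on the log2 scale and higher in triple knockout cells by 0.51 (SE 0.15, adjusted p = 0.0127). *STAT3* and *IFNGR2*, a chain of the interferon gamma receptor, had 0.56 and 0.43 in triple knockout cells, both called higher.

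The brakes on interferon signalling were measured beside it. Of 8 such genes, 2 were higher in double (all genes, 8.37%) and 5 in triple knockout cells (20.3%), and 1 was lower in *AGO1* knockout cells (5.5%). *SOCS1*, which blocks JAK kinases, had 16.7, 31.8 and 32.1 normalized counts in wild-type, 33.1, 25.5 and 24.4 in *AGO1*, 52.9, 23.9 and 40.4 in *AGO2*, 76.7, 83.7 and 64.9 in double and 228, 177 and 212 in triple knockout cells. The triple knockout samples lay above all double knockout samples, and these above all others. The log2 fold changes were 1.48 (SE 0.28, adjusted p = 0.00201) and 2.93 (SE 0.27, adjusted p = 6.45e-07), and the 2 lines differed by 1.45 (SE 0.24, adjusted p = 5.21e-04). *SOCS3*, a brake on STAT3, was lower in *AGO1* knockout cells (-0.88) and higher in triple knockout cells (0.94).

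Of 20 adaptors, kinases and other sensors, 5 were higher and 0 lower in double knockout cells (all genes, 8.37% and 8.35%), and 9 were higher and 7 lower in triple knockout cells (20.3% and 19.8%). *MAVS*, the adaptor of RIG-I and MDA5, had 8633, 8874 and 8012 normalized counts in wild-type, 10719.7, 11468 and 11862 in double and 13989, 13202 and 12572 in triple knockout cells, with log2 fold changes of 0.42 (SE 0.09, adjusted p = 0.00402) and 0.64 (SE 0.09, adjusted p = 3.31e-05). *TLR3*, the endosomal receptor for double-stranded RNA, had 89.6, 28.7 and 72.2 in wild-type, 63.6, 72.4 and 35.6 in *AGO1*, 154, 141 and 155 in *AGO2*, 291, 217 and 150.3 in double and 137, 141 and 171 in triple knockout cells. Its samples in the 3 lines without AGO2 all lay above wild type, by 1.24, 1.79 and 1.23 on the log2 scale (adjusted p = 0.0188, 0.00141 and 0.00701). Wild-type replicate 2, at 28.7, was the lowest of all samples, and values without it are not reported here. *STING1*, the adaptor of DNA sensing, fell in *AGO1* knockout cells, log2 fold change -1.22 (SE 0.19, adjusted p = 8.53e-04), and in triple knockout cells, -1.56 (SE 0.19, adjusted p = 9.64e-06). *TRAF6*, a ligase in signalling from Toll-like receptors, was higher by 0.89 and *IRF5*, a factor that induces inflammatory genes, lower by -0.88 on the log2 scale in triple knockout cells.

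Enzymes that edit or remove the cell's own nucleic acid showed no common direction. Of 10, 2 were higher and 1 lower in double (all genes, 8.37% and 8.35%), and 4 higher and 2 lower in triple knockout cells (20.3% and 19.8%). *ADAR*, which edits adenosine in double-stranded RNA and whose long form is interferon-inducible, had 11449.9, 11592 and 10991 normalized counts in wild-type, 15788, 15296 and 13341 in double and 13332, 13443 and 14299 in triple knockout cells, rising by 0.38 (SE 0.09, adjusted p = 0.00558) and 0.27 (SE 0.09, adjusted p = 0.0187). *SAMHD1*, a deoxynucleotide hydrolase, rose by 0.82 and 0.76. Of 8 double-stranded RNA binding proteins, 1 was higher in double and 3 in triple knockout cells (all genes, 8.37% and 20.3%). *DICER1*, which cuts microRNA precursors, was called in 3 lines. It had 3172, 3447 and 3525 in wild-type, 4562, 4422 and 3809.8 in *AGO1*, 5236, 6798 and 6043 in *AGO2*, 5623, 5421 and 5459 in double and 8905, 9293 and 9866 in triple knockout cells, where its log2 fold change was 1.47 (SE 0.11, adjusted p = 5.90e-08).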

How the data were processed

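Whole-cell RNA of wild-type HCT116 cells and 4 knockout lines, 3 replicates each, was sequenced from strand-specific libraries. Per the labels the reads were processed with STAR 2.5.3a, Salmon 0.11.0 and DESeq2 on hg38, and the paper's methods name other STAR and Salmon releases. The authors deposited an estimated count per gene (expected counts) for each sample, without normalization for depth, with fractional values for 30.8% to 33.8% of genes. Headers of the 3 *AGO2* knockout files name a different Salmon mode.

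Counts were rounded, filtered with filterByExpr and scaled by TMM in edgeR 4.0.16 (R 4.3.3). A single quasi-likelihood fit of the 15 samples gave every comparison, so that all lines share an estimate of the spread. P-values were adjusted by Benjamini-Hochberg over the 22842 genes tested. The shared estimate does not follow the wider spread of members in double knockout cells (median SD 0.45, other lines 0.15 to 0.24). Their SE and adjusted p in that line may therefore be too small. The paper's threshold of 0.05 was kept, and its tool, DESeq2 1.42.0, was run as an alternative. Log2 levels of single samples used a prior count of 2. On simulated data with 200 changed genes in triple knockout cells (22368 genes), the fit called 82 of 100 genes changed 2-fold and 99 of 100 changed 4-fold, with 13 false calls. The changed genes were drawn above a count limit that members such as *RSAD2* and *IFI44* do not reach. Each gene was given the same spread in every line. These rates therefore do not cover members with few counts or the spread in double knockout cells. Replicate numbers were checked for pairing: same-numbered samples of different lines deviated together with correlations of -0.22 to 0.29 (mean -0.0067, 30 pairs), so the numbers were not taken to pair the samples.

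The 49 members and the other gene lists were chosen with earlier results of these data known, and all members may be named. Values of every sample are given for members called with a log2 fold change of at least 1 in size and for others of their role or family; from the other lists, at most 5 called genes with the largest change in triple knockout cells are named, beside *IFNB1*, *MAVS*, *ADAR*, *DICER1* and the AGO genes, and some genes the rule would name are not reported here. Positions, exon lengths and symbols are from GENCODE v44, where 57167 of the 57875 identifiers were found. The release of the authors' annotation was not checked. Counting error and the spread between replicates both enter the standard errors. Alternatives tried were other size factors, DESeq2, other filters, the 6 samples of a comparison alone, the replicate number as a block and each sample left out in turn. One more, chosen after seeing the data, left out wild-type replicate 2 and double knockout replicate 3 together.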

Additional observations from a re-analysis of the deposited data

Results flagged for a closer look

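Members whose level differed between triple and double knockout cells in a direct test of that difference (edgeR's quasi-likelihood test, adjusted p at or under 0.05) are listed here with the log2 difference, triple minus double. *SAMD9L* had 4.56 and was the only one higher. The lower ones were *IFI27* (-2.52), *OAS1* (-2.33), *BST2* (-2.31), *IFI6* (-1.99), *OASL* (-1.85), *IFITM1* (-1.76), *IRF9* (-1.44), *ISG15* (-1.38), *IFI35* (-1.19), *IRF7* (-1.09), *HERC6* (-1.02), *ISG20* (-1.02), *EIF2AK2* (-0.59), *DDX60L* (-0.57) and *IFIT5* (-0.42). The double knockout replicates spread more for the members than for other genes, and leaving out replicate 3, the lowest, raised the number of lower members from 15 to 21. *DDX60L* was in addition called in opposite directions against wild type, at 0.496 in *AGO1* and -0.67 in triple knockout cells. No test for single outlying samples was run on lines of 3 samples.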

How the results depend on the processing

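Of the 30 members called in double and the 25 called in triple knockout cells, 21 and 18 were called under each of the settings that could be fitted for them, and none changed sign. Leaving out 1 sample at a time gave 25 to 30 members higher and 0 lower in double, and 17 to 23 higher and 3 to 4 lower in triple knockout cells. It gave 1 to 2 higher and 0 to 2 lower in *AGO1*, 0 to 5 higher and 0 to 4 lower in *AGO2* knockout cells, where each call rests on single samples, and 1 higher and 11 to 21 lower between the multiple knockouts. With both libraries that stand apart left out, 25 were lower between the multiple knockouts, and 0 were called in *AGO2* knockout cells. With total counts only, which moved the median of all genes by up to 0.14 log2 units below that of the reported fit, 1 member was higher in *AGO1*, and 1 higher and 2 lower in *AGO2* knockout cells. Without the filter the single knockouts had 1 lower (*AGO1*) and 6 higher and 2 lower (*AGO2*). With the 6 samples compared alone, 23 of 46 members tested were higher in double, and 22 higher and 3 lower in triple knockout cells. Double knockout calls lost there were *EIF2AK2*, *HERC5*, *OASL*, *TRIM21*, *DDX60*, *XAF1* and *PLSCR1* (adjusted p = 0.0519 to 0.221). That setting gave 0 higher in *AGO1*, 1 higher in *AGO2* and 2 higher in triple than in double knockout cells. With at least 10 counts in every sample *SAMD9L* was not tested, and 0 members were higher in the last comparison. That filter left 24 and 14 members higher in double and triple knockout cells, fewer members being tested. With the replicate number as a block, 30 members were higher in double and 23 higher and 3 lower in triple knockout cells. That fit lost *IFITM1* (adjusted p = 0.0512) and gained *OAS1* and *HERC5* (adjusted p = 0.0442 and 0.0444) in triple knockout cells, and *IFIT5* (adjusted p = 0.0715) was lost between the multiple knockouts, leaving 14 lower; the numbers may pair nothing. DESeq2 gave 30 members higher and 22 higher and 4 lower in the same lines. Members with few counts, such as *SAMD9L*, *RSAD2* and *IFI44*, have the least precise fold changes.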
